A study of Caenorhabditis elegans with 12 samples.

Results

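The nhr genes of Caenorhabditis elegans encode nuclear hormone receptors, a family of transcription factors that has expanded far more in nematodes than in insects or vertebrates. The genes were taken as every row whose gene symbol in the WBcel235 annotation starts with nhr- followed by a number, and a gene was kept when its normalised count was at least 10 in at least 2 of the 12 libraries. Of 269 nhr genes in the table, all of them protein coding, 127 fell below this filter and the others, 52.8% of the family, are called the expressed nhr genes. Over the whole table, 14640 of 46904 genes met the same filter. RNA from late-stage embryos of 6 genotypes was sequenced, in 2 libraries per genotype. The wild type was the laboratory strain N2. The mutants were hpl-2, hpl-2 I158A, lin-61, the double mutant lin-61 hpl-2 and the triple mutant met-2 set-25 set-32, and the labels give no other allele, treatment or age. Each RNA sample came from worms of 5 plates, so a value is a mean over a large mixed population of embryos, and the labels do not state that libraries of 1 genotype are independent cultures. All p-values below therefore rest on the spread between libraries, which may be technical.

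A nuclear receptor has a zinc-finger DNA-binding domain and a ligand-binding domain, and switches target genes on or off together with coactivators and corepressors. Some worm receptors have clear counterparts in flies and vertebrates and act in moulting, cell fate and sterol signalling. Most descend from an ancestor related to HNF4 (hepatocyte nuclear factor 4), and several of these control fat, vitamin B12-dependent and xenobiotic metabolism. HPL-2 is a worm homologue of heterochromatin protein 1, LIN-61 is a chromatin protein with MBT repeats that binds methylated histone H3 lysine 9, and MET-2, SET-25 and SET-32 are histone methyltransferases linked to that mark. The comparisons ask how transcript levels differ when these heterochromatin proteins are mutated.

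The libraries held between 1593546 and 2533102 reads in genes, except replicate 2 of the triple mutant with 10243076. That library also stood apart in 3.2% of reads from noncoding genes, against 14.47% to 17.53% elsewhere, and in 1.618% mitochondrial reads, against at most 0.446%. Each test was a limma fit over all 12 libraries on log2(normalised count + 1), with Benjamini-Hochberg adjustment over 14640 genes and a threshold of 0.05, and it is called the full fit. The reduced fit left out the deviating library, so that the triple mutant had 1 library that was assumed to vary like the other genotypes. For comparisons without the triple mutant the log2 differences are the same in both fits and only the pooled spread changes. Leaving out replicate 1 of the triple mutant in place of replicate 2 raised the counts of called nhr genes in those comparisons much as well, to between 4 and 22. The share of all genes called in that fit is not given here. Levels of the mutated genes were read in each mutant: the hpl-2 transcript had 304 and 242 for N2, 36.2 and 34.5 for hpl-2, 30.9 and 49.8 for the double mutant, and 283 and 244 for hpl-2 I158A, whose amino acid change a transcript level cannot check. The lin-61 transcript had 91.9 and 41.4 for N2, 7.15 and 5.45 for lin-61, and 13.6 and 12.4 for the double mutant. In the triple mutant met-2 had 44.3 and 77 against 266 and 267 for N2 and 112 ± 2.36 (SD, n = 2) for hpl-2 I158A, where it was also called lower than in N2 in the full fit (adjusted p = 0.0287), set-25 had 159 and 99.7 against 417 and 406, and set-32 had 6.93 and 2.89 against 14 and 15.8.

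Most nhr genes were expressed at low levels in late-stage embryos. The mean normalised count of the expressed nhr genes ranged from 2.99 to 1005.3 with a median of 20.2, and the median over all tested genes was 41.9. Per kilobase of exon, the median was 12.3 for the nhr genes and 49.6 for all tested genes. A count of 10 was reached in all 12 libraries by 68 of them and 15 did so in only 2 or 3. Genes just inside the filter, with 2 such libraries, were nhr-50, nhr-59, nhr-80, nhr-94, nhr-121, nhr-126, nhr-143 and nhr-258, whose highest counts lay between 10.6 and 19.8. Just outside were 9 genes with 1 such library, whose highest counts were at most 12.4 apart from nhr-291 at 72.9. Of the 127 genes below the filter, 15 had no read in any library.

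**Figure D1:**
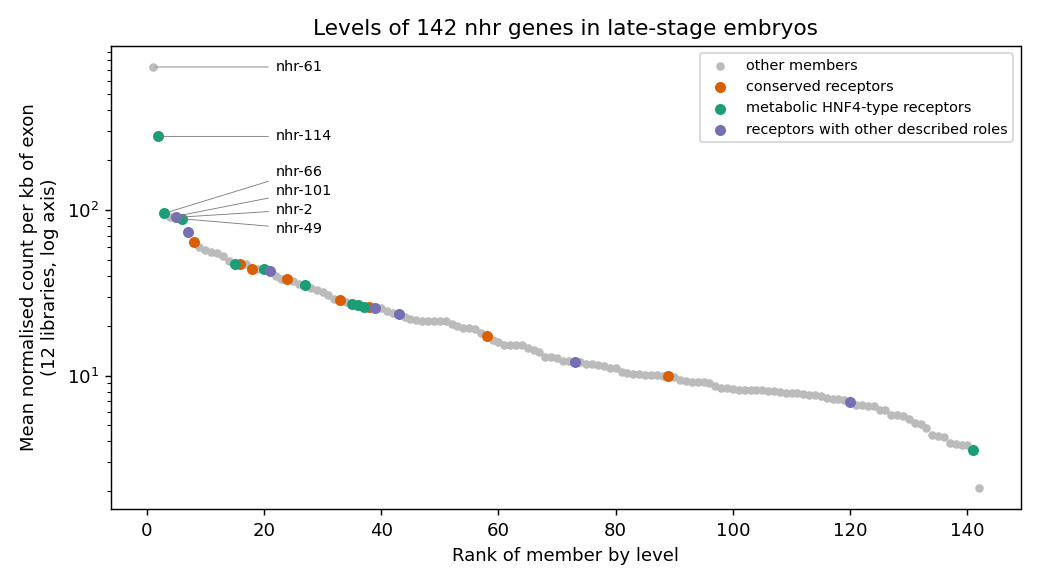
Mean normalised count per kilobase of exon over 12 libraries (y axis, log scale) for the expressed nhr genes ranked by level (x axis), with colours for the 3 lists of receptors with described roles. nhr-61 stands at 730 and nhr-114 at 278, while the median gene is at 12.3.

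The highest level per kilobase was that of nhr-61 on chromosome II (14816136 to 14818543), at 730 normalised counts per kilobase. Its normalised counts were 956 and 558 for N2, 1045.9 and 1047.6 for hpl-2, 1397.8 and 1432.6 for hpl-2 I158A, 1137.5 and 1234.1 for lin-61, 1121.9 and 780 for the double mutant, and 1094.7 and 257 for the triple mutant. Both hpl-2 I158A libraries lay above all others, and the triple mutant's replicates lay furthest apart. The last bases of nhr-61 overlap those of W01D2.1 on the opposite strand by 5 bases, and W01D2.1 had 591 ± 87.5 (SD, n = 2) in N2 and 1255.7 ± 29.3 in hpl-2 I158A. Whether reads were counted by strand is not given in the sources used here, and the part of W01D2.1 in the nhr-61 values was not tested.

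Next came nhr-114, a receptor of the HNF4-related group that protects the germline when the diet is poor in tryptophan or vitamin B12, at 278 normalised counts per kilobase. Its counts were 576 and 481 for N2, 352 and 325 for hpl-2, 446 and 473 for hpl-2 I158A, 503 and 462 for lin-61, 368 and 444 for the double mutant, and 546 and 99.9 for the triple mutant. The hpl-2 libraries lay below both N2 libraries and below every other library except the deviating one. Then followed nhr-66 at 95.4 per kilobase, nhr-101 and nhr-2 at 90.2 each, and nhr-49 at 88.5. Neighbours in this order from nhr-66 down did not separate by more than the spread between their libraries. The receptor NHR-49 regulates fatty acid desaturation, together with NHR-80, and fatty acid oxidation. Its counts ranged from 148 to 302, both extremes in the triple mutant, and it passed no test in either fit.

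Chromosome V carried 81 of the expressed nhr genes (57%), against 16.8% of all tested genes. The share of nhr genes on a chromosome that passed the filter differed: 81 of 167 on V (48.5%), 25 of 33 on IV (75.8%), 17 of 23 on X (73.9%) and 8 of 23 on I (34.8%). In the outer 25% at either end of the chromosomes lay 79 of the expressed nhr genes (55.6%), 63.8% of the 127 nhr genes below the filter and 41.1% of all tested genes. Another nhr gene lay within 10 kb of 79 of them, and another expressed one within 10 kb of 66.

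Few nhr genes passed the full fit in any comparison. In hpl-2 against N2 none did with limma, where 0.608% of all genes were called, although 16 had an unadjusted p under 0.05 and DESeq2 called 1. In hpl-2 I158A against N2 it was 1 gene (background 4%), in lin-61 none (0.0956%, 11 with an unadjusted p under 0.05, none with DESeq2), in the double mutant 1 (0.273%) and in the triple mutant none (0.328%, 13 with an unadjusted p under 0.05, none with DESeq2). Between mutants, 2 were called in hpl-2 I158A against hpl-2 (7.84%). In the double mutant against hpl-2 the full fit called none (0.13%, 20 with an unadjusted p under 0.05, 2 with DESeq2), and against lin-61 none (0.0273%, 17 with an unadjusted p under 0.05, 1 with DESeq2). The percentages are shares of all genes called by limma at the adjusted threshold. Shares of all genes at the unadjusted threshold or with DESeq2 are not given here, so those counts show nothing particular to nhr genes. The calls of the full fit fell on 3 genes, nhr-104, nhr-31 and nhr-95, where 9.95% of all tested genes were called in at least 1 of the 8 comparisons. The reduced fit called 45 of the expressed nhr genes in at least 1 of the 8 comparisons (31.7%), where 49.5% of all tested genes were called.

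The summed level of the expressed nhr genes was 6565 and 6525 for N2, 7145 and 7044 for hpl-2, 7637 and 7328 for hpl-2 I158A, 7141 and 7344 for lin-61, 6326 and 5869 for the double mutant, and 6774 and 6672 for the triple mutant. The double mutant was the only genotype whose libraries both lay below N2. In the full fit the median log2 difference of these genes from N2 was 0.20 in hpl-2, where all tested genes had 0.03, and -0.11 in the double mutant, where all had 0.01. A difference above 0 was seen for 91 of them in hpl-2 (64.1%, against 51.7% of all tested genes) and for 59 in the double mutant (41.5%, against 50.8%). Both comparisons share the N2 libraries. Directly between these mutants, the median of the double mutant minus hpl-2 was -0.30 for the nhr genes and 0.01 for all genes.

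**Figure D2:**
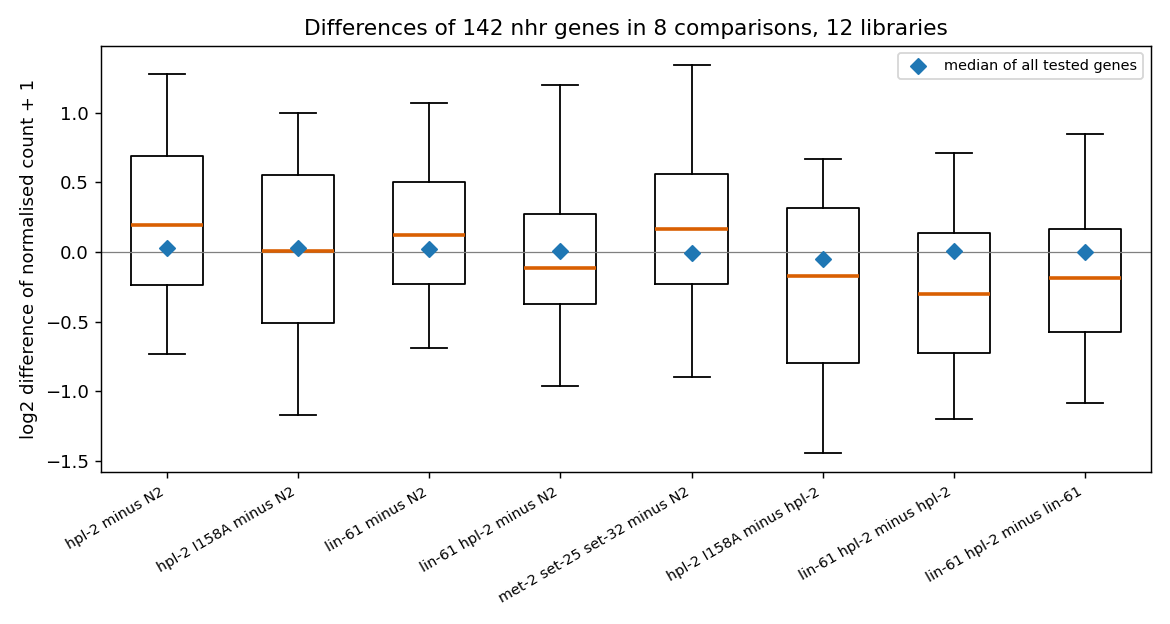
Boxes show the log2 differences of the expressed nhr genes in 8 comparisons (box, quartiles; orange line, median; whiskers, 5th to 95th percentile), and diamonds the median of all 14640 tested genes. The nhr medians run from 0.20 in hpl-2 minus N2 to -0.30 in lin-61 hpl-2 minus hpl-2.

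The single gene that passed in hpl-2 I158A against N2 was nhr-104 (chromosome IV, 4784469 to 4788692). Its normalised counts were 35.8 and 34.1 for N2, 44.7 and 49.6 for hpl-2, 10.6 and 8.15 for hpl-2 I158A, 31.7 and 34.5 for lin-61, 75.4 and 41.9 for the double mutant, and 44.3 and 26.7 for the triple mutant. Both hpl-2 I158A libraries lay below all 10 others. The gene fell in hpl-2 I158A against N2 by 1.80 on the log2 scale (SE 0.388, limma adjusted p = 0.0336), with adjusted p = 0.00129 in the reduced fit and 0.00129 to 0.195 over 19 alternatives. Against hpl-2 it fell by 2.22 (adjusted p = 0.0144, 0.000201 to 0.151 over alternatives). The call against hpl-2 was lost when any library of either hpl-2 allele was left out (adjusted p of 0.105 to 0.151), and that against N2 when any library of N2, either hpl-2 allele or lin-61 was left out (0.0718 to 0.195). In this bulk RNA, fewer cells that express a gene and less RNA per cell cannot be told apart.

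The other gene that passed between the hpl-2 alleles was nhr-31 (chromosome IV, 8022655 to 8029513), which is needed for the tubular growth of the excretory cell. It had 56.1 and 75.5 for N2, 101 and 82.4 for hpl-2, 32.8 and 26.5 for hpl-2 I158A, 69.4 and 67.2 for lin-61, 54.4 and 56.6 for the double mutant, and 61 and 126 for the triple mutant. Again both hpl-2 I158A libraries were the lowest of the 12. Against hpl-2, the level in hpl-2 I158A fell by 1.60 on the log2 scale (SE 0.35, adjusted p = 0.0263), with adjusted p = 0.000255 in the reduced fit and 0.000151 to 0.203 over alternatives. The call was lost when any library of either hpl-2 allele or of lin-61 was left out (adjusted p of 0.0549 to 0.203). Against N2 the difference was -1.12 (adjusted p = 0.106 in the full fit, 0.00425 in the reduced fit, 0.0035 to 0.404 over alternatives).

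In the double mutant the gene that passed was nhr-95 (chromosome V, 19076604 to 19082641). It had 10.9 and 8.53 for N2, 28.5 and 22.1 for hpl-2, 12.5 and 19.4 for hpl-2 I158A, 25.5 and 36.3 for lin-61, 44.5 and 61.1 for the double mutant, and 22.2 and 19.1 for the triple mutant. All 10 mutant libraries lay above both N2 libraries, and the double mutant was highest. The rise in the double mutant was 2.32 on the log2 scale (SE 0.4, adjusted p = 0.0483), with adjusted p = 0.00357 in the reduced fit and 0.00305 to 0.33 over alternatives. It was lost when any single library other than those of the triple mutant was left out. The authors' deposited table gives nhr-95 a log2 fold change of 2.46 with adjusted p = 0.00811 there. In hpl-2 the difference from N2 was 1.30 (adjusted p = 0.169) and in lin-61 it was 1.56 (adjusted p = 0.231). These passed in the reduced fit with 0.0338 and 0.0233, and ranged from 0.0327 to 0.664 and from 0.0224 to 1.0 over alternatives.

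Beside nhr-95 lie nhr-145, 5081 bases away, and nhr-79, all within 135 kb that hold no other nhr gene, a stretch picked after the values were seen. In nhr-145 the counts were 17.1 and 14.6 for N2 and 48.2 and 46.4 for the double mutant, and between 17.3 and 33.3 in the other libraries. In nhr-79 they were 17.1 and 11 for N2 and 44.5 and 47.5 for the double mutant, and between 15.1 and 31.8 elsewhere. For each of these genes the double mutant's libraries lay above all 10 others. The log2 differences from N2 were 1.52 for nhr-145 (adjusted p = 0.173 in the full fit, 0.0266 in the reduced fit, 0.0246 to 0.824 over alternatives) and 1.67 for nhr-79 (adjusted p = 0.18, 0.0237 and 0.0207 to 0.759). The stretch holds 19 tested genes in all, with a median difference of 0.66. The reduced fit called 5 of them higher (background 5.01%) and none lower, and the full fit called 1 (background 0.273%). The 3 nhr genes by which the stretch was picked are among those 5 and in that median. These values therefore give no separate evidence on the region.

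**Figure D3:**
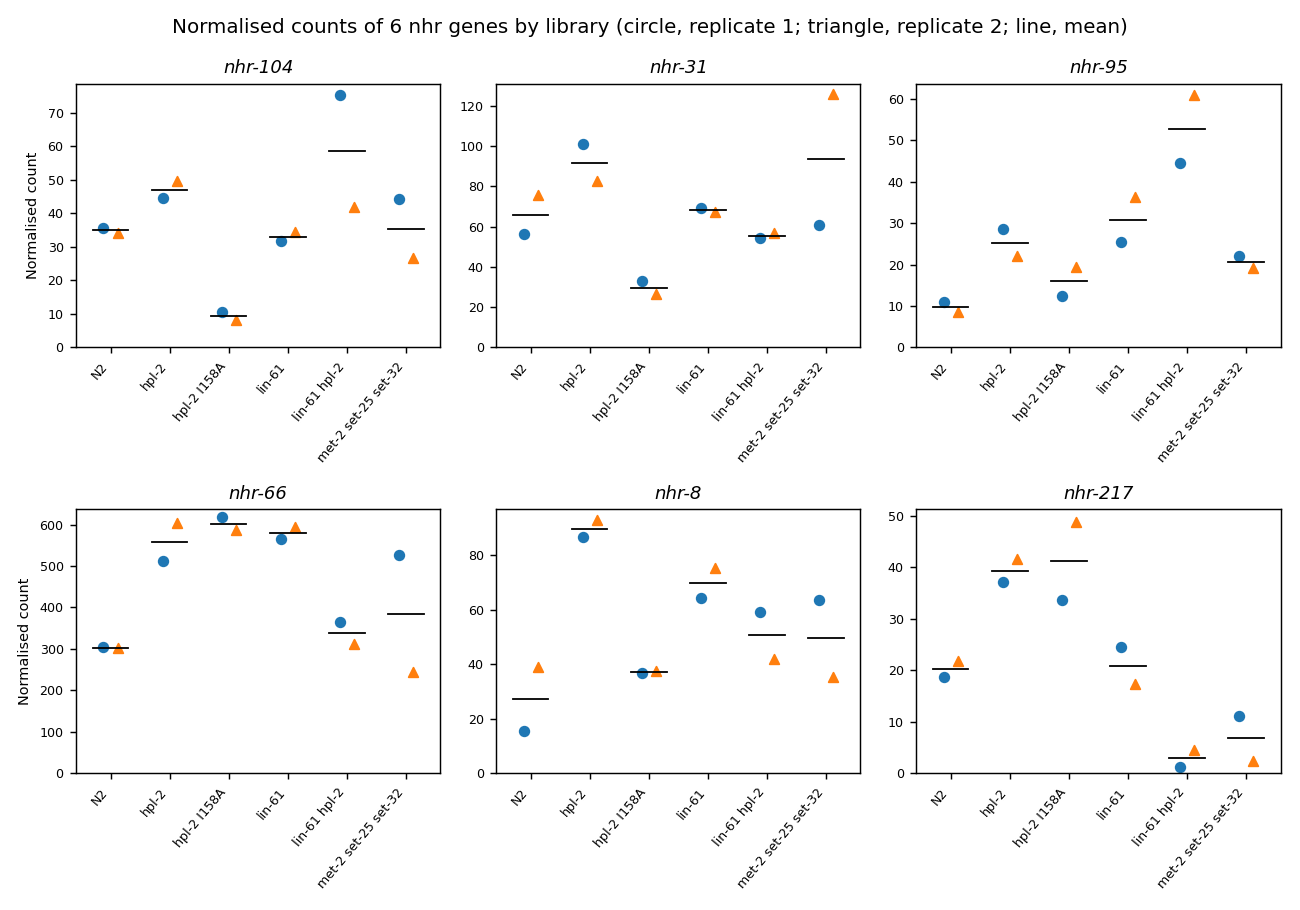
Normalised counts of 6 nhr genes in every library (circles, replicate 1; triangles, replicate 2; lines, mean of 2; axes from 0). nhr-104 and nhr-31 are lowest in hpl-2 I158A, nhr-95 is highest and nhr-217 lowest in lin-61 hpl-2, and nhr-66 is at most 305 in N2 and at least 513 in hpl-2, hpl-2 I158A and lin-61.

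The reduced fit called 12 of the expressed nhr genes in hpl-2 against N2 (8.45%, background 14.4%), 8 higher and 4 lower. Those higher were nhr-8, nhr-14, nhr-21, nhr-26, nhr-66, nhr-95, nhr-97 and nhr-258, of which nhr-258 had no read in N2 and met the filter through the hpl-2 libraries alone, so that it had to differ. Those lower were nhr-2, nhr-101, nhr-114 and nhr-119. In hpl-2 I158A it called 13 (9.15%, background 22%), of which 7 were higher (nhr-14, nhr-43, nhr-61, nhr-66, nhr-71, nhr-133 and nhr-230) and 6 lower (nhr-31, nhr-69, nhr-101, nhr-104, nhr-146 and nhr-253). In lin-61 it called 4 (background 6.19%), nhr-8, nhr-66 and nhr-95 higher and nhr-119 lower. In the double mutant it called 8 (5.63%, background 5.01%), with nhr-79, nhr-95, nhr-145 and nhr-246 higher and nhr-1, nhr-25, nhr-41 and nhr-217 lower. In the triple mutant it called nhr-66 (background 3.46%). The shares of nhr genes called were below the background in 4 of these 5 comparisons and near it in the double mutant. The reduced fit called 29 nhr genes in at least 1 mutant against N2 (20.4%, background 34.5%) and 6 in at least 2 mutants (4.23%, background 11.1%), which share the N2 libraries.

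Over the 5 mutants, the largest mean log2 differences from N2 among genes with a mean count of at least 20 were those of nhr-95 (1.37), nhr-8 (1.15), nhr-21 (1.05), nhr-11 (0.83) and nhr-130 (0.79). The smallest were those of nhr-101 (-0.81), nhr-58 (-0.66), nhr-28 (-0.64), nhr-253 (-0.62) and nhr-68 (-0.57). All 5 mutants had positive differences for each gene of the first group. For nhr-58 all 5 were negative, from -1.01 to -0.36, and for nhr-101 too, from -1.67 to -0.15. Positive differences were seen for nhr-253 in lin-61 (0.03) and the double mutant (0.15), for nhr-28 in the triple mutant (0.03) and for nhr-68 in hpl-2 I158A (0.01). Without the deviating library the triple mutant's difference was -0.06 for nhr-101 and the 5-mutant mean -0.59. The smallest means were then those of nhr-58 (-0.68), nhr-28 (-0.65), nhr-68 (-0.65), nhr-101 and nhr-25 (-0.59 each), and nhr-26 (0.87) took the place of nhr-11 (0.77) among the largest. These means come from comparisons with the same N2 libraries.

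**Figure D4:**
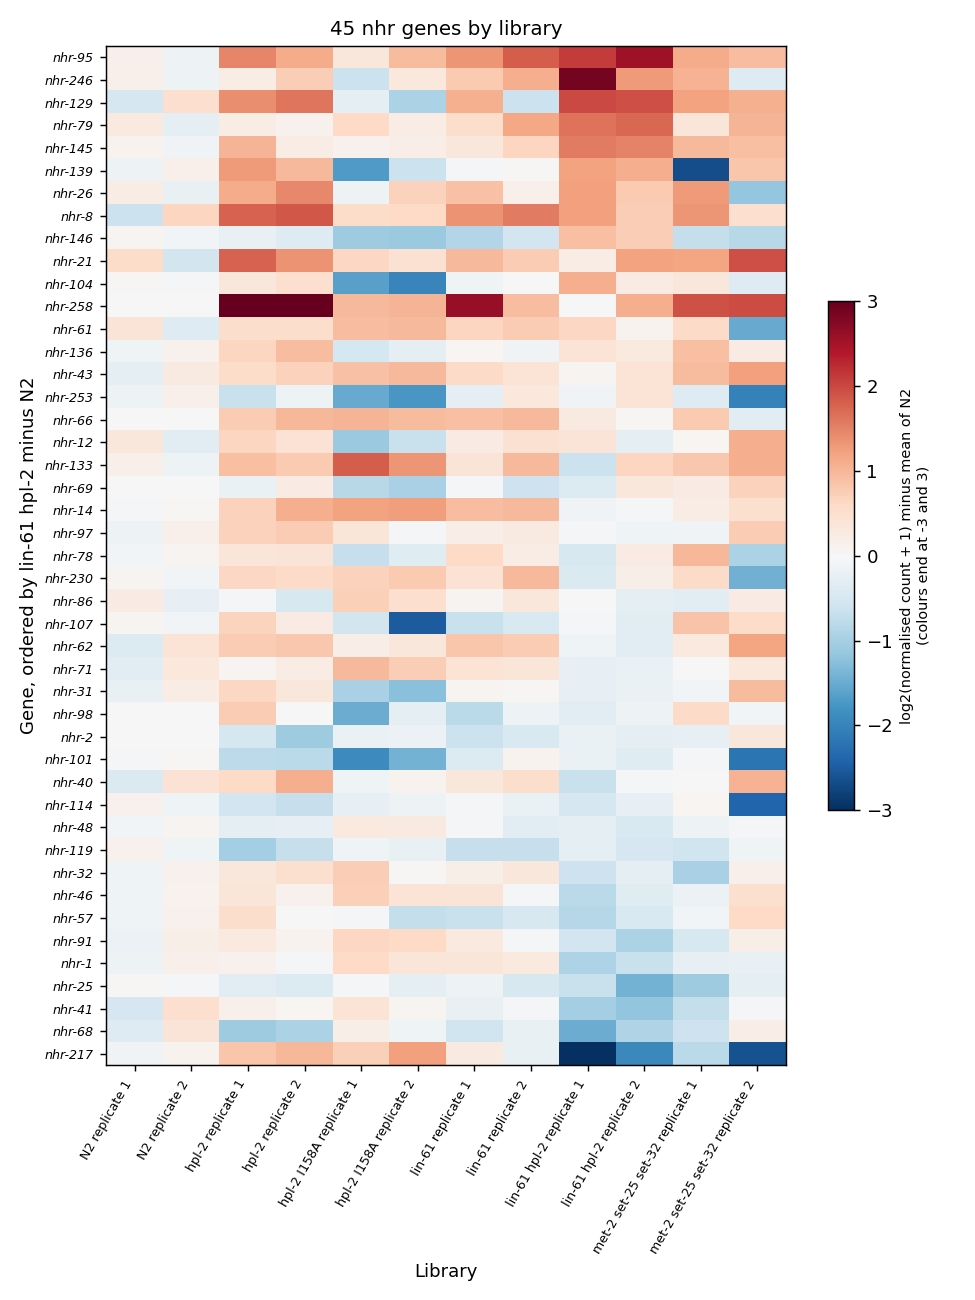
Colour shows log2(normalised count + 1) minus the N2 mean in each of 12 libraries (columns) for the 45 nhr genes that the reduced fit called in any of 8 comparisons (rows, ordered by the lin-61 hpl-2 difference). The rows were chosen by their values; nhr-95 is above the N2 mean in all mutant libraries, and nhr-217 changes from above it in hpl-2 to below it in lin-61 hpl-2.

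Among conserved receptors, 8 of 11 on the list were tested and none passed the full fit in any comparison. NHR-8, a relative of the sterol receptor DAF-12 that acts in xenobiotic resistance and cholesterol balance, had 15.6 and 39 for N2, 86.6 and 93 for hpl-2, 36.6 and 37.7 for hpl-2 I158A, 64.3 and 75.4 for lin-61, 59.3 and 41.9 for the double mutant, and 63.7 and 35.4 for the triple mutant. The hpl-2 and lin-61 libraries lay above both N2 libraries, and the hpl-2 I158A libraries lay inside the N2 range. The hpl-2 difference was 1.82 (SE 0.432, adjusted p = 0.0962 in the full fit, 0.00361 in the reduced fit, 0.00259 to 0.562 over alternatives). In the authors' deposited table it is 1.69 with adjusted p = 0.0109. For hpl-2 I158A against hpl-2 it was -1.25 (adjusted p = 0.1, 0.0141 and 0.00319 to 0.352), so the same gene stood higher in the hpl-2 mutant than in the I158A mutant.

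Against N2, 2 of the 8 tested conserved receptors were called lower in the double mutant in the reduced fit (background 5.01%), nhr-25 and nhr-41. The counts of nhr-25, the counterpart of fly Ftz-F1, were 151 and 145 for N2, 92.7 and 54.3 for the double mutant, and 105 to 144 in hpl-2, hpl-2 I158A and lin-61. Those of nhr-41, related to vertebrate testicular receptors, were 77.9 and 160 for N2 and 54.4 and 48.7 for the double mutant, its lowest values. For nhr-91, the counterpart of germ cell nuclear factor, they were 62.3 and 79.2 for N2, 47 and 36.2 for the double mutant and 108 and 106 for hpl-2 I158A. The double mutant's libraries lay below those of N2, hpl-2, hpl-2 I158A and lin-61 for each of these 3 genes, and nhr-91 was not called against N2 in either fit. For nhr-25 the difference from N2 was -1.05 (adjusted p = 0.0221 in the reduced fit, 0.297 in the full fit, 0.0199 to 0.675 over alternatives), and for nhr-41 it was -1.10 (0.0328, 0.318 and 0.0238 to 0.896). The conserved list had a median difference of -0.76 in the double mutant against hpl-2, beside -0.30 for all expressed nhr genes and 0.01 for all tested genes. The remaining tested members were nhr-23, the ROR counterpart that drives moulting (13.9 to 68.4), nhr-48 (163 to 276), nhr-67, the counterpart of fly tailless (33.4 to 55), and nhr-85, related to Rev-erb (13.9 to 38.2). Of these 4, the reduced fit called only nhr-48 in the 8 comparisons, higher in hpl-2 I158A than in hpl-2 (0.55, adjusted p = 0.0147, 0.104 in the full fit, 0.0144 to 0.38 over alternatives). Below the filter were nhr-6, nhr-111 and nhr-239, with no count above 8.17.

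All 10 metabolic receptors related to HNF4 on the list were tested, and none passed the full fit. NHR-66, which represses lipid metabolism genes together with NHR-49, had 305 and 301 for N2, 513 and 603 for hpl-2, 618 and 586 for hpl-2 I158A, 565 and 594 for lin-61, 364 and 311 for the double mutant, and 527 and 243 for the triple mutant. The libraries of hpl-2, hpl-2 I158A and lin-61 all lay above both N2 libraries, and those of the double mutant lay near N2. The differences from N2 were 0.87, 0.99 and 0.93, with adjusted p of 0.202, 0.0935 and 0.334 in the full fit and 0.000762, 0.000101 and 0.000949 in the reduced fit. Over alternatives these ranged from 0.00044 to 0.695, 7.39e-05 to 0.385 and 0.000657 to 1.0. The antisense RNA anr-44 lies opposite its introns and 2.7% of its exons. It had 561 and 561 for N2, 581 and 583 for hpl-2, 536 and 486 for hpl-2 I158A, and 712 and 637 for lin-61. For the double mutant anr-44 had 393 and 567, and for the triple mutant 611 and 112, lower in replicate 2 as nhr-66 was. It had no call in the full fit, and its part in the nhr-66 values was not tested.

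The triple mutant's value for nhr-66 depended on the library: the difference from N2 was 0.24 in the full fit (adjusted p = 0.721) and was called higher in the reduced fit (adjusted p = 0.017), while without replicate 1 it was -0.32. In the same mutant 10 nhr genes differed by more than 2 log2 units between replicates. Of these nhr-26, nhr-61, nhr-101, nhr-114, nhr-230 and nhr-236 were lower in replicate 2, and nhr-18, nhr-126, nhr-139 and nhr-143 were higher there. The other genotypes had 1 to 5 such nhr genes. The share of all tested genes that differed as much is not given here. Whether nhr genes differ from the rest in this respect was not tested.

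Among highly expressed genes outside these groups stood nhr-101, which the reduced fit called lower in both hpl-2 alleles. In nhr-101 the counts were 174 and 185 for N2, 103 ± 1.33 (SD, n = 2) for hpl-2, 47.2 and 66.2 for hpl-2 I158A, 135 and 194 for lin-61, 156 and 140 for the double mutant, and 172 and 38.7 for the triple mutant. Both hpl-2 alleles lay below N2, I158A further than hpl-2. The difference in hpl-2 I158A was -1.67 (adjusted p = 0.107 in the full fit, 7.03e-05 in the reduced fit, 5.11e-05 to 0.456 over alternatives), and the authors' deposited table gives -1.67 with adjusted p = 0.0173. Genes on the opposite strand cover 69.2% of its exons, so reads there cannot be told apart without strand. Among them pms-2 (35.6 on average) overlaps nhr-101 by only 126 bases, and the levels of the others are not given here. The nhr-114 difference in hpl-2 was -0.64 (adjusted p = 0.64, 0.0079 and 0.0079 to 0.903).

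The pair nhr-10 and nhr-68 activates the propionate shunt, a breakdown route used when vitamin B12 is scarce, through 5 enzyme genes. In nhr-68 the counts were 35.8 and 62.1 for N2, 21.9 and 23.9 for hpl-2, 53 and 42.8 for hpl-2 I158A, 30.6 and 40 for lin-61, 16.1 and 24.9 for the double mutant, and 30.5 and 54.1 for the triple mutant. The libraries of hpl-2 and of the double mutant lay below those of N2, hpl-2 I158A and lin-61. The hpl-2 I158A difference from hpl-2 was 1.03 (adjusted p = 0.149 in the full fit, 0.0368 in the reduced fit, 0.0272 to 0.483 over alternatives). For nhr-10 the counts lay between 26 and 73.9 and no comparison passed in either fit.

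The shunt enzyme genes were higher in hpl-2 I158A than in hpl-2, with a median difference of 1.35. In the full fit 4 of 5 rose (background 7.84% called in either direction), and in the reduced fit 5 of 5 (background 29.9%). The first enzyme gene, acdh-1, an acyl-CoA dehydrogenase, had 160 and 272 for N2, 66.6 and 87.7 for hpl-2, 291 and 320 for hpl-2 I158A, 230 and 168 for lin-61, 96.4 and 186 for the double mutant, and 85.9 and 193 for the triple mutant. Both hpl-2 I158A libraries were above all others, and the adjusted p against hpl-2 was 0.0247 (0.000108 to 0.197 over alternatives). For ech-6, hphd-1 and alh-8 these were 0.0197, 0.0255 and 0.0142. They lay between 6.88e-05 and 0.162, 0.000314 and 0.194, and 6.49e-05 and 0.156 over alternatives. The gene that did not pass in the full fit was hach-1 (adjusted p = 0.107), with 102 and 109 for hpl-2 and 179 and 199 for hpl-2 I158A. Against N2 no shunt gene passed the full fit. The reduced fit called acdh-1 and alh-8 lower in hpl-2 (background 14.4%) and ech-6 higher in hpl-2 I158A (background 22%). In the double mutant it called ech-6, hphd-1 and alh-8 lower (background 5.01%).

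**Figure D5:**
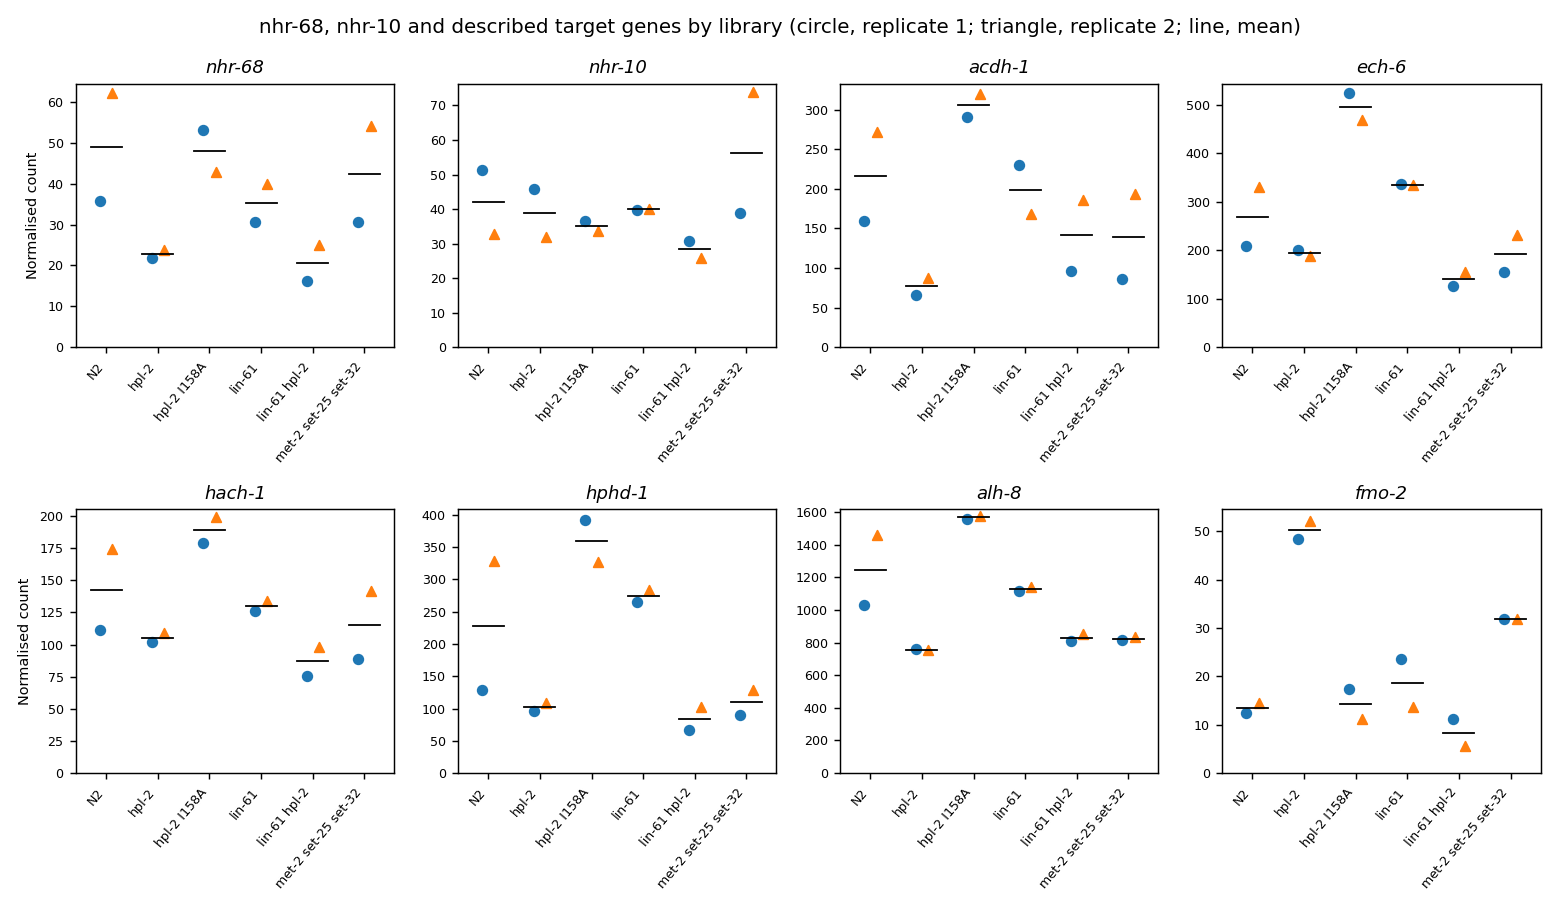
Normalised counts of nhr-68, nhr-10, the 5 propionate shunt genes and fmo-2 in every library (circles, replicate 1; triangles, replicate 2; lines, mean of 2; axes from 0). In all 5 shunt genes both hpl-2 I158A libraries lie above both hpl-2 libraries, with acdh-1 at 291 and 320 against 66.6 and 87.7.

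Markers of other cells and stages also differed between hpl-2 I158A and both hpl-2 and N2. Oocyte and maternal transcripts summed to 2115 and 2031 for hpl-2, 5318 and 5251 for hpl-2 I158A, and 1727 and 2740 for N2. Of these, 9 of 10 rose in hpl-2 I158A against hpl-2 in the full fit (background 7.84%). Neuronal markers summed to 745 and 702 for hpl-2, 359 and 418 for hpl-2 I158A, and 472 and 654 for N2, and 5 of 8 fell there. Against N2 (background 4%), 8 of 10 oocyte and maternal transcripts rose in hpl-2 I158A in the full fit (median difference 1.27) and 4 of 8 neuronal markers fell (median -1.43). The sums over 5 intestinal markers were 707 and 699 for hpl-2 and 733 and 703 for hpl-2 I158A, with none called. Between these alleles the full fit called 1 of 6 body wall muscle markers, unc-22, which was lower in hpl-2 I158A. It called no marker of pharynx or of epidermis and apical matrix. Markers of adult yolk and sperm summed to between 2 and 13 in every library, with msp-142 at 0 in all. The part of the maternal and neuronal transcripts in the differences of nhr-104, nhr-31, nhr-68 and the shunt genes was not tested.

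Of the targets of NHR-49 in fat metabolism, 1 of 6 tested passed the full fit in at least 1 of the 8 comparisons (background 9.95%). This was fmo-2, a flavin-containing monooxygenase, with 12.5 and 14.6 for N2, 48.5 and 52.2 for hpl-2, 17.3 and 11.2 for hpl-2 I158A, 23.5 and 13.6 for lin-61, 11.1 and 5.66 for the double mutant, and 31.9 and 31.8 for the triple mutant. Both hpl-2 libraries lay above all others. It fell in hpl-2 I158A against hpl-2 (adjusted p = 0.0401, 0.00187 to 0.228 over alternatives), while the desaturase genes fat-2, fat-5 and fat-6 passed in neither fit and fat-7 was below the filter. Of the 10 metabolic receptors, the reduced fit also called nhr-69, which acts in insulin-dependent glucose handling, lower in hpl-2 I158A against N2 (-0.91, adjusted p = 0.0485, 0.183 in the full fit, 0.0453 to 0.498 over alternatives). The counts of nhr-62, needed for the longevity response to dietary restriction, were 42.1 and 75.5 for N2, 96.1 and 100 for hpl-2, 101 and 96.3 for lin-61, and 51.9 and 45.3 for the double mutant. For nhr-62 the libraries of hpl-2 and lin-61 lay above those of N2 and of the double mutant. Those of hpl-2 I158A (64.5 and 71.3) lay inside the N2 range, and the triple mutant had 69.3 and 129. The remaining ones, nhr-13 (24.9 to 52), nhr-64 (33.6 to 70.8) and nhr-80 (0.963 to 12.5), passed no test in either fit.

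Of 8 receptors with other described roles, 7 were tested and none passed the full fit. NHR-2, a receptor made early in embryos, had 199 and 197 for N2, 136 and 93.9 for hpl-2, 172 and 174 for hpl-2 I158A, 127 and 144 for lin-61, 173 and 161 for the double mutant, and 168 and 249 for the triple mutant. The libraries of hpl-2 and lin-61 lay below all of N2, hpl-2 I158A and the double mutant. The hpl-2 difference was -0.81 (adjusted p = 0.175 in the full fit, 0.0101 in the reduced fit, 0.00909 to 0.72 over alternatives). The reduced fit also called nhr-86, which senses a phenazine made by the pathogen Pseudomonas aeruginosa, higher in hpl-2 I158A than in hpl-2 (0.87, adjusted p = 0.0101, 0.093 in the full fit, 0.00734 to 0.428). In the double mutant against hpl-2 it called nhr-40, which acts in muscle and embryonic development, and nhr-57, a gene induced by low oxygen, lower. The others were nhr-45 (24.9 to 72.3), nhr-60 (6.23 to 28.9) and nhr-76 (3.12 to 24.1), without a call in either fit. Below the filter was nhr-176, with at most 9.63.

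Receptors and partners outside the nhr names were read from the same table. The X-chromosome counting receptor gene sex-1 had 444 and 403 for N2, 217 and 254 for hpl-2, and 442 and 365 for hpl-2 I158A. It was called lower in hpl-2 in the reduced fit (adjusted p = 0.00288, 0.217 in the full fit, 0.00236 to 0.686 over alternatives). The other 2 tested receptors of that list, daf-12 and fax-1, were not called in either fit, and unc-55 and odr-7 were below the filter. Of 7 genes for ligand synthesis and sterol transport 3 were tested, and strm-1, a sterol methyltransferase gene, was called higher in hpl-2 in the reduced fit (adjusted p = 0.024, 0.196 in the full fit, 0.024 to 0.69). All 4 coregulators were abundant. The corepressor gene gei-8 had 612 and 749 for N2, 448 and 455 for hpl-2, 392 and 416 for hpl-2 I158A, and 364 and 430 for the double mutant. Against N2 the reduced fit called the corepressor gene din-1, gei-8 and the coactivator gene cbp-1 lower in hpl-2 (background 14.4%) and in hpl-2 I158A (background 22%). In the double mutant it called din-1, gei-8 and the Mediator subunit gene mdt-15 lower (background 5.01%), and the full fit called none against N2. For the triple mutant the gei-8 difference from N2 was -0.38 in the full fit and -0.68 without the deviating library. There the sex-1 difference was -0.25 and -0.77. For gei-8 in hpl-2 I158A the adjusted p was 0.0888 in the full fit, 0.00121 in the reduced fit and 0.00101 to 0.389 over alternatives. Among 6 moulting and apical matrix genes, targets of NHR-23 or NHR-25, the full fit called none against N2. In hpl-2 I158A against hpl-2 (background 7.84%) it called mlt-11 higher and mlt-10 lower.

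Between the hpl-2 alleles the reduced fit called 20 nhr genes (14.1%, background 29.9%), 7 higher and 13 lower in hpl-2 I158A. The 7 higher were nhr-2, nhr-48, nhr-68, nhr-71, nhr-86, nhr-114 and nhr-119. The 8 with the lowest adjusted p among the lower ones were nhr-104, nhr-31, nhr-136, nhr-101, nhr-12, nhr-8, nhr-139 and nhr-78. Position on the chromosome went with a different centre of the differences: the median of hpl-2 I158A minus hpl-2 was 0.05 for the 79 nhr genes in the outer 25% and -0.46 for the 63 in the middle, beside 0.12 and -0.19 for all tested genes. For hpl-2 minus N2 the nhr medians were 0.15 in the outer 25% and 0.42 in the middle, beside -0.09 and 0.10 for all tested genes.

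In several nhr genes the double mutant lay outside the values of N2, hpl-2 and lin-61. Against hpl-2 the reduced fit called 17 nhr genes in the double mutant (12%, background 19.5%), 4 higher and 13 lower, and against lin-61 it called 10 (7.04%, background 9.44%), 1 higher and 9 lower. For nhr-217 (chromosome I, 12341145 to 12342826) the counts were 18.7 and 21.9 for N2, 37.1 and 41.6 for hpl-2, 33.7 and 48.9 for hpl-2 I158A, 24.5 and 17.3 for lin-61, 1.24 and 4.53 for the double mutant, and 11.1 and 2.45 for the triple mutant. The double and triple mutants lay below every other library. The double mutant's difference from hpl-2 was -3.52 (SE 0.635, adjusted p = 0.0609 in the full fit, 0.000423 in the reduced fit, 0.000321 to 0.489 over alternatives), and the authors' deposited table gives nhr-217 a log2 fold change of -3.75 with adjusted p = 0.00139. The gene nhr-1 had 145 and 182 for N2, 179 and 159 for hpl-2, 209 and 199 for lin-61, and 85.3 and 102 for the double mutant, its lowest values. Its difference from lin-61 was -1.12 (adjusted p = 0.117 in the full fit, 0.00231 in the reduced fit, 0.00152 to 0.869 over alternatives), and the authors' deposited table gives -1.12 with adjusted p = 0.00226.

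In the opposite direction stood nhr-146, with 24.9 and 21.9 for N2, 20 and 17.7 for hpl-2, 10.6 and 10.2 for hpl-2 I158A, 12.3 and 15.4 for lin-61, 44.5 and 39.6 for the double mutant, and 13.9 and 12.7 for the triple mutant. Both double mutant libraries lay above all others, and the difference from lin-61 was 1.54 (adjusted p = 0.166 in the full fit, 0.0181 in the reduced fit, 0.0111 to 0.894 over alternatives). Also higher in the double mutant was nhr-246, at 76.6 and 24.9 against at most 21.8 in the other libraries, with replicates far apart. The low-count gene nhr-258 had no read in N2, 10.5 and 10.6 for hpl-2, and at most 5.11 elsewhere. It met the filter through the hpl-2 libraries alone, so that it had to be highest there. Its hpl-2 level is at least 5.14-fold above what 3 reads over both N2 libraries would give, a value that this filter favoured. The same holds for its place among the 13 genes called lower in the double mutant than in hpl-2. The effect of the hpl-2 mutation in lin-61 was also tested against that in N2. The difference was called for none of the expressed nhr genes in the full fit (background 1.73%). An unadjusted p under 0.05 was reached by 23 of them, with the background at that threshold not given here. The reduced fit called 17, nhr-258 among them (12%, background 20.2%).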

How the data were processed

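Polyadenylated RNA from late-stage embryos of 6 genotypes, 2 libraries each, was sequenced with a directional library kit, per the labels' protocols. The submitters' processing notes name STAR, featureCounts, DESeq2, WBcel235 and ce11, with the counting options not given in the sources used here. Deposited signal values are reads per gene divided by 1 size factor per library. Whole reads were recovered from their steps (100.0% whole within 1e-06), at 1593546 to 10243076 reads per library. The authors' deposited comparison table holds log2 fold changes and p-values. Its sign was turned where needed.

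Identifiers were matched to Ensembl release 115 (46817 of 46904). Genes with at least 10 in at least 2 libraries were fitted with limma 3.58.1 in R 4.3.3 on log2(value + 1), by genotype over all 12 libraries, with p-values adjusted by the Benjamini-Hochberg method over 14640 genes. The replicate numbers did not pair the libraries: over 15 pairs of genotypes the correlation of deviations ran from -0.077 to 0.156, with 1 above 0.1. edgeR 4.0.16 and DESeq2 1.42.0 on the recovered reads were alternatives. In data simulated for hpl-2 minus N2, with 13902 genes tested, limma recovered 6 of 100 genes changed 2-fold and 72 of 100 changed 4-fold. It also called 8 genes that had not been changed. All changed genes were drawn from mean counts above 45.2, the upper quartile of the expressed nhr genes, whose median was 20.2. The simulation used 1 common dispersion (0.0967) estimated over all 12 libraries. Recovery at the lower counts of most nhr genes was therefore not measured.

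The nhr genes and the gene lists were chosen with earlier results of these data known. The text names the genes called in a comparison (up to 8 per direction), all receptors of 3 lists with described roles, the 6 highest levels per kilobase and the 5 most extreme means over the mutants. The reads per library limit precision. For counting error alone, 3 reads over the group's 2 libraries were taken as the floor for a gene with none.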

Additional observations from a re-analysis of the deposited data

Results flagged for a closer look

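For 17 nhr genes the effect of the hpl-2 mutation differed between the lin-61 and N2 backgrounds, by the test of that difference in the limma fit without replicate 2 of met-2 set-25 set-32. Leaving out replicate 1 of that genotype in its place gave 17 calls too, and the fit of all 12 libraries gave 0, with 23 unadjusted p under 0.05. The background share called was 20.2% of all genes in the former fit and 1.73% in the latter. This comparison was added after the data were seen. Shares of all genes for the fit without replicate 1 and for an unadjusted p under 0.05 are not given here.

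The nhr share called, 12%, was below that background. In 14 of the 17 genes the effect of the hpl-2 mutation was lower in lin-61 than in N2. Over all 2956 genes called in this test, 1352 (45.7%) were lower. The differences in effect were -3.54 for nhr-217, -2.29 for nhr-8, -1.93 for nhr-14, -1.80 for nhr-62, -1.65 for nhr-66, -1.65 for nhr-23, -1.64 for nhr-40, -1.43 for nhr-230, -1.18 for nhr-1, -1.09 for nhr-91, -1.04 for nhr-97, -0.99 for nhr-46 and -0.86 for nhr-61, all on the log2 scale. The fitted value of the remaining one, nhr-258, was -4.75, but it has no read in N2, met the filter through the hpl-2 libraries alone, and its value depends on the 1 added before the logarithm. The differences were 1.84 for nhr-146, 1.15 for nhr-119 and 1.11 for nhr-2 in the other 3. All of these genes were chosen by this same test and share its libraries, and the filter favoured the sign of nhr-258. Their split by direction is therefore a description and no separate evidence on the nhr genes.

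The lowest adjusted p without that library was 5.93e-05 for nhr-66 (0.0739 with 12 libraries), where hpl-2 minus N2 was 0.87 and lin-61 hpl-2 minus lin-61 was -0.78. For nhr-8 those effects were 1.82 and -0.47 (adjusted p = 0.00505, 0.0846 with 12 libraries). For nhr-217 they were 0.92 and -2.62 (adjusted p = 0.0021, 0.0742 with 12 libraries). With 12 libraries the adjusted p-values of the 17 genes ran from 0.0533 for nhr-14 to 0.568 for nhr-61.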

How the results depend on the processing

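With 12 libraries the counts of called nhr genes against N2 were 0 (hpl-2), 1 (hpl-2 I158A), 0 (lin-61), 1 (the double mutant) and 0 (the triple mutant), then 2 in hpl-2 I158A against hpl-2, and 0 in lin-61 hpl-2 against hpl-2 or lin-61. In that order DESeq2 called 1, 2, 0, 1, 0, 3, 2 and 1. edgeR and the fit without a filter on low values called 2 in hpl-2 I158A against hpl-2 and 0 in the other 7. Adding 0.5 in place of 1, and the fit with the replicate block, each called 0 in lin-61 hpl-2 against N2 and changed no other count. edgeR without replicate 2 of met-2 set-25 set-32, an alternative chosen after seeing the data, called 13, 11, 5, 8, 1, 27, 21 and 11. TMM scaling and leaving out genes with over 10% exon overlap changed no count. Leaving out each library in turn gave 0 to 13, 0 to 14, 0 to 4, 0 to 8, 0 to 19, 0 to 22, 0 to 19 and 0 to 10, and 0 to 17 for the difference in effect of hpl-2 between backgrounds. The highest counts came from leaving out a met-2 set-25 set-32 library. Shares of all genes called are given above only for the full and reduced limma fits. The counts under other settings therefore show how calls depend on the processing, and nothing particular to nhr genes. The calls of nhr-104 against N2 and of nhr-95 were lost in 10 and 14 of 19 alternatives. For nhr-66, met-2 set-25 set-32 minus N2 was -0.32 without replicate 1 of that mutant, 0.79 without replicate 2 and 0.24 with all libraries. The cause of these shifts was not tested beyond the change in pooled spread. With 2 libraries per genotype and 2533102 reads or fewer in all but 1, low-count genes such as nhr-258 rest on few reads.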
